A study of Felis catus with 20 samples.

Results

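Subcutaneous abdominal adipose tissue was followed in the cats that were housed under long days (LD) first and short days (SD) second. The sample labels put 6 cats in this order, each with a biopsy at period 1 on LD and a biopsy at period 2 on SD, which made 12 of the 20 samples of the study. The other 8 samples came from 4 cats that had SD in period 1 and LD in period 2. The paper instead gives groups of 5 cats each, and the labels were used as given. All were healthy adult neutered male domestic shorthair cats with no genetic modification, the light phase lasted 16 hr in LD and 8 hr in SD, the dark phase filled the rest of the day, and biopsies were taken at wk 12 of each period. The cats were fed to keep body weight constant, were biopsied after withholding food and under sedation, and stayed in the room to which their group had been assigned. In these 6 cats LD was always period 1 and SD always period 2, so that day length, period and anything else that differed between the biopsy dates cannot be told apart within them. Cats are given by the replicate number of the labels, 2, 3, 4, 5, 8 and 10.

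Adipose tissue stores energy as triglyceride in adipocytes and releases it as fatty acids, and its vessels, stroma and resident leukocytes contribute RNA to a biopsy as well. Day length reaches tissues of seasonal mammals mainly through melatonin, the pineal hormone of the dark phase, whose nightly release lasts longer in short days, and fat mass and adipose lipid metabolism follow the season in several species. The biopsies were bulk tissue, in which fewer cells of a type and less RNA per cell cannot be told apart. The count table identifies genes by Ensembl identifier only, and 0 of its 21890 identifiers matched the reference table used here, so gene symbols, pathways, cell type markers and sequences are not analysed here, and the tissue label could not be checked against marker genes.

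The 12 libraries held 15479104 to 19719676 reads on genes, at which the 3 counts taken as a detection floor are worth 0.152 to 0.194 CPM (counts scaled to a common library size). Gene totals were 17376040 ± 939619 at period 1 on LD and 17630738 ± 1482700 at period 2 on SD (mean ± standard deviation, n = 6). The within-cat difference averaged 254698 reads with a standard deviation of 1176984 (exact sign flip permutation test on these differences, 2-sided, p = 0.75, adjusted p = 0.875 over 5 library measures). The share of reads assigned to no gene (25.4% against 25.3%), the share of gene reads on the 50 highest genes (29.7% against 33.5%), the TMM scaling factor (1.02 against 0.997) and the score on the first principal component (15.7 against -15.7) had an adjusted p of 0.875 as well in the same exact test. The lowest p this test can reach with 6 cats is 0.03125. Of the 12 libraries, 1 (cat 4, period 1) had a column name ending in a different letter, whose meaning is not given in the sources used here.

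Most cats moved in one direction along the main axis of variation, and cat 5 moved along it the other way. The first principal component held 43.6% of the variance of log2(CPM + 1) over 12820 genes, with CPM scaled here by library size only. The second held 19.3%. From period 1 on LD to period 2 on SD the score on component 1 went from 8.82 to -41.4 in cat 3, from 50.5 to -16.7 in cat 4, from 39.9 to -25.9 in cat 8 and from 61.4 to -6.22 in cat 10. It was nearly level in cat 2, at -29.6 and -26.2. In cat 5 it went from -36.8 to 22.2, so that the period 2 sample of this cat lay above those of all other cats and its period 1 sample below them. The 2 periods overlapped, and over all 6 cats the change was -31.4 with a standard deviation of 52.0 (exact sign flip permutation test, p = 0.188, adjusted p = 0.875). Without cat 5 it was -49.5 (exact permutation p = 0.125).

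**Figure D1:**
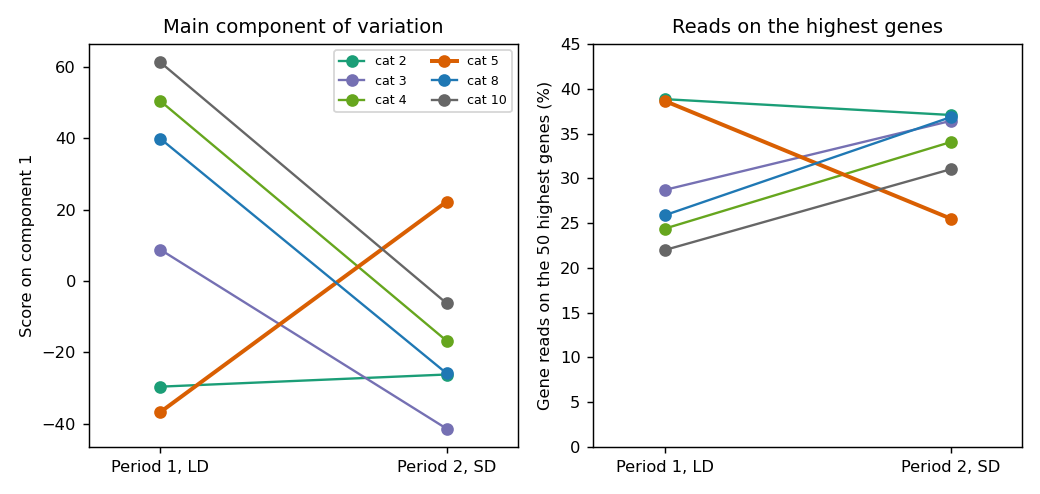
Score on the first principal component (left, no unit) and share of gene reads on the 50 highest genes of each library (right, %) at period 1 on LD and period 2 on SD; each line joins the samples of 1 cat. Cat 5 (thick orange line) runs against cats 3, 4, 8 and 10 in both panels, and cat 2 is nearly level.

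A few very abundant transcripts took up a changing part of the RNA along the same axis. The 50 highest genes were taken in each library by itself, so they need not be the same genes throughout. The share of gene reads on the 50 highest genes was 38.8%, 28.7%, 24.4%, 38.6%, 25.9% and 22.0% at period 1 in cats 2, 3, 4, 5, 8 and 10, and 37.1%, 36.4%, 34.1%, 25.5%, 36.8% and 31.0% at period 2. It was thus higher on SD in cats 3, 4, 8 and 10, by 7.72 to 11.0 percentage points, lower in cats 5 and 2, with changes of -13.2 and -1.77 points. Across the 6 cats the change in this share and the change in component 1 had a Pearson's r of -0.995 (exact permutation p = 0.00833, adjusted p = 0.05 over the 6 tests of 3 relations) and a Spearman's rho of -0.771 (exact permutation p = 0.103, adjusted p = 0.154). Without cats 2 and 5, the farthest from the median on the x axis, r was -0.748. Component 1 was taken from CPM scaled by library size only, where a larger share on the highest genes lowers the CPM of the others. Both measures were therefore linked in part by construction, and how far was not tested. The change in the share of reads on no gene gave an r of 0.931 (exact permutation p = 0.0167, adjusted p = 0.05), a rho of 0.714 (exact permutation p = 0.136, adjusted p = 0.163) and, without the same cats, an r of 0.709. The change in gene total gave an r of -0.963 (exact permutation p = 0.0264, adjusted p = 0.0528) and a rho of -0.657 (exact permutation p = 0.175, adjusted p = 0.175). This last relation rested on cats 2 and 5, since without them r was 0.823. The part of these library measures in the gene results was not tested beyond the fit that carries the share of unassigned reads as a covariate.

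Cat 5 also stood apart gene by gene. Its labels were used as given and could not be checked against another record, so that a mix-up of its samples was not tested. Over 12942 genes, the within-cat changes of cat 5 had correlations of -0.754 to -0.232 with those of the other 5 cats, with a median of -0.571. The 10 pairs among the other cats had correlations of 0.0796 to 0.731, with a median of 0.407, and the lowest value was that of cats 2 and 4. These are correlations across genes, which are not independent replicates, and the samples also shared their scaling. In cats 2, 3, 4, 8 and 10 more genes were at least 2-fold higher than at least 2-fold lower at period 2 on the log2(CPM + 1) scale, from 663 against 247 genes in cat 4 to 1393 against 772 in cat 3. In cat 5 it was 141 genes higher against 836 lower.

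**Figure D2:**
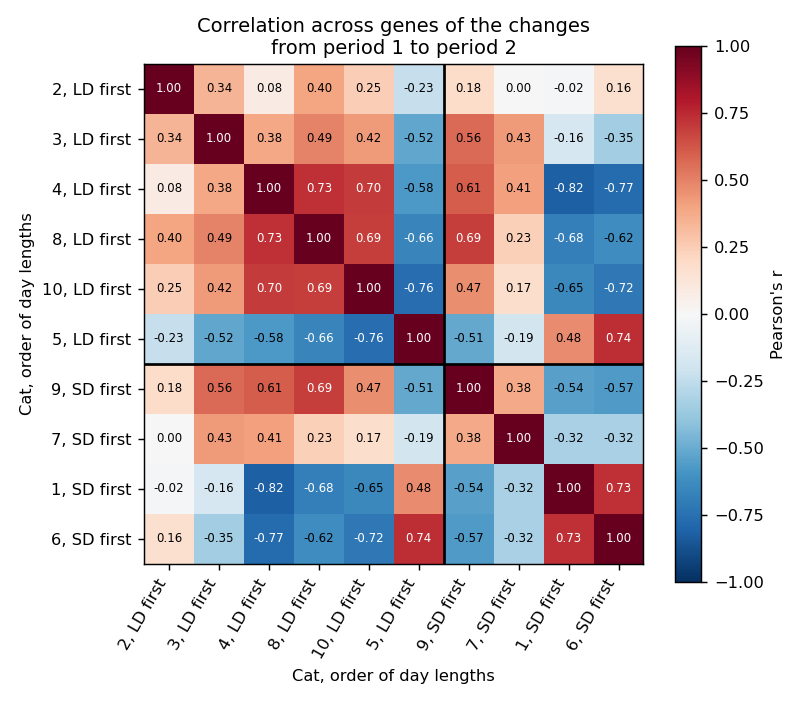
Pearson's r, across genes, between the changes from period 1 to period 2 (log2 of CPM + 1) of every pair of cats, with the 6 LD-first cats and the 4 SD-first cats divided by black lines. Within the LD-first cats the values are below 0 in the row of cat 5 and above 0 in every other pair.

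With all 6 cats paired, 49 of 14053 genes (0.349%) differed between period 2 on SD and period 1 on LD at the raw p threshold of 0.005, and no gene passed an adjusted p of 0.05. Among them, 20 genes (0.142% of those tested) rose and 29 (0.206%) fell by that raw threshold. The 49 genes were a smaller share of those tested than this threshold passes by definition when no gene changes. The smallest adjusted p of edgeR's quasi-likelihood test was 0.471, and 1399 genes, 719 higher and 680 lower, had a raw p under 0.05. These 1399 were a larger share of the genes than a cut of 0.05 passes by definition when no gene changes. The reason was not tested. An adjusted p under 0.05 was reached by 3 genes in edgeR's likelihood ratio test and by 4 in DESeq2. The split into higher and lower genes depended on the scaling, with 20 against 29 genes under TMM, 28 against 25 under DESeq2's size factors and 32 against 15 under library size only, where 21 of the 49 genes were called again. Over all genes tested, log2 fold changes had a median standard error of 0.21, and the called genes had a median absolute log2 fold change of 0.93, from 0.56 to 4.72. Without the pairing, 79 genes were called, of which 16 were among the 49. With the share of unassigned reads added as a covariate, 389 genes were called, 341 higher and 48 lower, at a smallest adjusted p of 0.109.

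The 20 genes that rose were of lower abundance than the 29 that fell. Their median mean levels were 14.8 CPM (0.392 to 118) and 33.3 CPM (1.26 to 378), and their median log2 fold changes were 0.77 and -1.04. The same 6 cats chose these genes, so their signs are a description. All 20 were higher at period 2 in cats 2, 3, 4, 8 and 10, and 17 of them were higher in cat 5, against 53.5% of all genes there, with a median change of 0.30 there. The 29 were all lower in cats 2, 3, 4 and 8, 28 were lower in cat 10, and 15 were lower in cat 5, where their median change was -0.046. In cat 5, therefore, about as many of the 29 were higher as lower, while most of the 20 moved the same way there. Among the 49 genes, 21 had their highest level in the period 1 library of cat 8, where 1633 of all 14053 genes had theirs.

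The gene with the lowest p was ENSFCAG00000031558. Its level on LD at period 1 was 7.41, 10.7, 5.13, 13.6, 8.31 and 8.68 CPM in cats 2, 3, 4, 5, 8 and 10, and on SD at period 2 it was 19.6, 16.5, 10.2, 30.9, 19.3 and 14.5 CPM. Every cat was higher on SD, cat 5 held the highest level in each period and cat 4 the lowest, and the periods overlapped because cats 3 and 5 on LD were above cat 4 on SD. The means were 8.98 ± 2.91 and 18.5 ± 6.99 CPM (standard deviation, n = 6). The log2 fold change was 1.03 (standard error 0.15, edgeR adjusted p = 0.471). This gene and the 3 that follow were named by their p in these same 6 cats, so that their 6 of 6 is not independent of the choice. Leaving out each cat in turn gave raw p-values of 6.71e-05 to 0.000555.

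ENSFCAG00000007897, the second by p, was scarce. It stood at 0.445, 0.415, 0.648, 0.192, 0.326 and 0.602 CPM at period 1 on LD and at 1.21, 3.48, 1.58, 1.02, 1.44 and 1.68 CPM at period 2 on SD, in the same order of cats. All 6 period 2 values lay above all period 1 values, and the sample of cat 3 at period 2 was far above the rest. The log2 fold change was 1.92 (standard error 0.34, edgeR adjusted p = 0.471), resting on 3 to 59 reads per library.

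Of the genes that fell, ENSFCAG00000005217 had the lowest p. On LD at period 1 it was at 9.34, 2.07, 9.02, 5.11, 4.89 and 3.78 CPM, and on SD at period 2 at 2.42, 0.826, 4.18, 2.55, 2.40 and 3.02 CPM. All 6 cats were lower on SD, the difference was small in cat 10, and the periods overlapped because cats 3 and 10 on LD were below cat 4 on SD. The log2 fold change was -1.11 (standard error 0.24, edgeR adjusted p = 0.471). The raw p was above the threshold without the pairing (0.0107) and with the pairing kept and all 20 libraries in 1 fit (0.0129).

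ENSFCAG00000001234 had the next lowest p of the genes that fell. It was at 39.6, 24.3, 42.5, 31.2, 53.9 and 51.7 CPM at period 1 and at 23.1, 15.6, 20.9, 25.6, 31.4 and 39.3 CPM at period 2. The fall was present in each cat and smallest, in CPM, in cat 5, and cats 8 and 10 were highest in both periods. The log2 fold change was -0.65 (standard error 0.14, edgeR adjusted p = 0.471). It missed the raw threshold without the pairing (0.0165), with all 20 libraries in 1 paired fit (0.0114), under library size only (0.00661), without cat 4 (0.00650) and without cat 8 (0.00634). What these 4 genes encode is not analysed here.

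**Figure D3:**
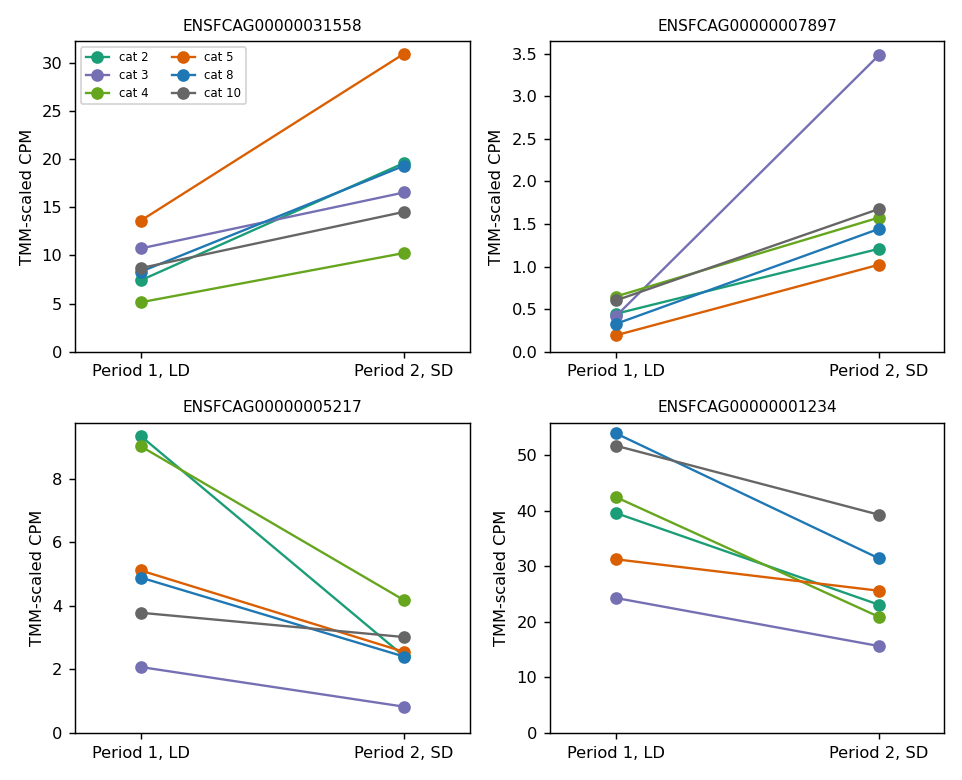
TMM-scaled CPM of the 4 named genes at period 1 on LD and period 2 on SD; each line joins the samples of 1 cat, and every axis starts at 0. All lines rise in the upper panels and fall in the lower panels, and the periods are fully apart for ENSFCAG00000007897.

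The signs of the change were compared over the 6 cats, where all higher and all lower are each 1 of 64 possible combinations. Of 14053 genes, 201 (1.43%) were higher at period 2 on SD in all 6 cats and 227 (1.62%) were lower in all 6. Of these, 17 and 14 were among the called genes. Their changes were mostly small, with a median log2 fold change of 0.51 for the higher and -0.39 for the lower genes. On the log2(CPM + 1) scale no gene changed by at least 2-fold in every cat, but the added 1 shrinks the changes of scarce genes. In CPM itself, ENSFCAG00000007897 rose by more than 2-fold in every cat, and how many genes did so was not counted. In a further count, 7 genes (0.0498%) had every period 2 value above every period 1 value, and 13 (0.0925%) had every one below. The called genes held 3 of the 7 and none of the 13. The largest class, with 3013 genes, was higher in 4 of the 6 cats.

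The number of called genes depended most on cat 5. At the raw threshold, 12 genes were called without cat 2, 24 without cat 3, 20 without cat 4, 11 without cat 8 and 78 without cat 10, and no gene passed an adjusted p of 0.05 in any of these fits. Without cat 5 it was 1488 of 14006 genes (10.6%), 846 higher and 642 lower. In that fit 1663 genes (11.9%) had an edgeR adjusted p under 0.05, 929 higher and 734 lower on SD at period 2, and the smallest was 0.00853. The choice of cat 5 for a closer look was made after its values were seen, so these p-values describe the other 5 cats and say nothing of a sixth. Of the 49 genes called in all 6 cats, 47 were among the genes called at the raw threshold without cat 5. Other tests and scalings of the 5-cat fit gave 1345 to 2771 genes at an adjusted p under 0.05. The balance again followed the scaling, with 990 higher against 520 lower under DESeq2's size factors and 590 against 1023 under library size only.

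In the cat left out, the same genes moved the other way. For the 1663 genes, cat 5 changed against the sign of the other 5 cats in 1596 (96.0%) and with it in 66. The 929 higher genes had a median change of 0.86 in the other 5 cats and of -0.93 in cat 5, and the 734 lower genes had -0.67 and 0.47. Under library size only the share of genes that went the other way in cat 5 was 98.3%, and under DESeq2's size factors it was 95.8%. Within the 5 cats of the fit, 90.2% of the higher genes were up in cat 2 and at least 99.6% in the others. Over all genes, cat 5 moved the same way as the mean of the others at 26.5%, and each other cat at 62.6% to 75.3% when left out. At the genes called at the raw threshold without it, the cat left out moved the same way at 3.70% of 1488 for cat 5, at 39.7% of 78 for cat 10, where the median change was -0.19 against 0.88 in the rest, and at 66.7% to 85.0% for the others, whose fits called 11 to 24 genes. Genes on which the other 5 cats agreed in sign numbered 4174 (29.7%) without cat 5 and 502 to 791 without any other cat. The cat left out moved the same way at 10.3% of them for cat 5, and at 54.1% (cat 3) to 85.3% (cat 8) for the rest.

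**Figure D4:**
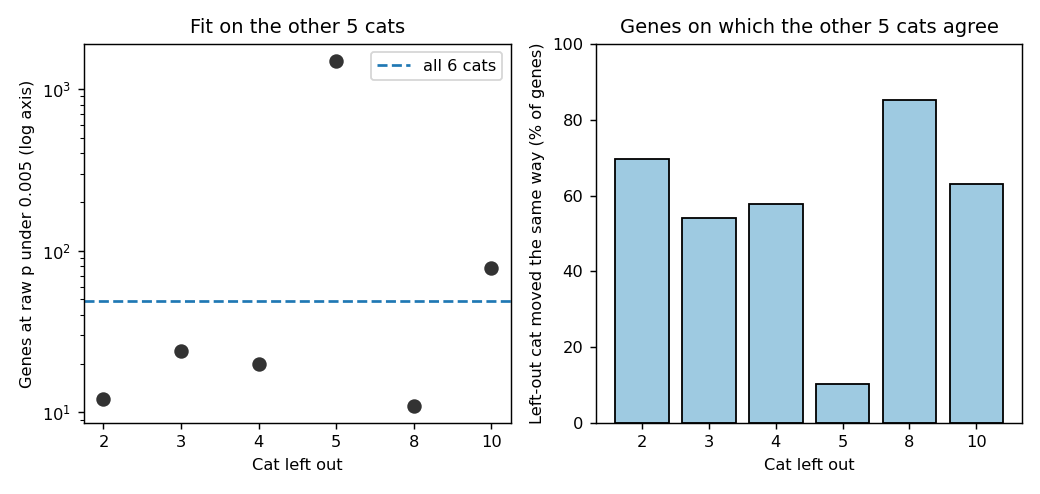
Left, genes at a raw p under 0.005 (log axis) when each cat is left out of the paired fit, with the dashed line at the 49 genes of all 6 cats. Right, among genes on which the remaining 5 cats moved one way, the share (%) at which the cat left out moved the same way; the bar of cat 5 is at 10.3% and the others are above 50%.

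The genes of the 5-cat fit were not confined to scarce transcripts. By mean level, they made up 1.88% of the genes under 1 CPM, 7.19% of those from 1 to 10 CPM, 14.4% from 10 to 100 CPM, 20.4% from 100 to 1000 CPM and 28.8% of the 111 genes of at least 1000 CPM. In the same order of classes, the median standard error in the fit of all 6 cats was 0.46, 0.26, 0.17, 0.20 and 0.31. The part of this precision in the shares was not tested. The median level was 24.5 CPM for the higher and 49.8 CPM for the lower genes. In the fit of all 6 cats, none of those 111 genes was called, against 0.349% of all genes. Among the 50 highest genes, here 1 fixed set for all libraries, 6 had a raw p under 0.05, against 1399 of 14053. Neither count sets the abundant genes apart. A separate feature belonged to a single sample. Of 104 genes with over 50% of their summed level in 1 library, 82 had it in the period 2 library of cat 3. The called genes held 2 of the 104, a larger share than the 0.349% of all genes but one that rests on 2 genes.

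The cats that had SD first give a reading of period 2 against period 1 with the day lengths exchanged. The difference between the orders in this change passed the raw threshold in 21 of 14245 genes (0.147%), 4 with a higher and 17 with a lower value in the LD-first cats, and the change averaged over both orders passed it in 40 (0.281%), 35 of them higher at period 2. Neither had a gene at an adjusted p under 0.05, with smallest values of 0.791 and 0.741, and 510 and 854 genes had a raw p under 0.05. The SD-first cats by themselves gave 22 genes (0.154%), 21 higher and 1 lower. Each of these shares was below what the raw threshold passes by definition when no gene changes. DESeq2 called 193 genes for the difference and 217 for the average, and 7 and 0 of these passed its adjusted p, while edgeR's likelihood ratio test had 2 genes at an adjusted p under 0.05 for each. Without cat 5 the numbers were 185 for the difference and 124 for the average. The median standard error of the difference was 0.37 on the log2 scale, and the smallest difference called was 0.76.

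The 49 genes called in the LD-first cats were read again in the SD-first cats. Their change from period 1 to period 2 there had the same sign for 33 and the opposite sign for 16, against 51.1% with the same sign over all genes. By edgeR's quasi-likelihood test 0 of the 49 were called there and 2 had a raw p under 0.05, against 22 and 524 of all 14245 genes. The median standard error over all genes was 0.29 in the 4 SD-first cats and 0.24 in the LD-first cats of this fit. The median SD-first change of the 49 along the LD-first direction was 0.19, against 0.90 in the LD-first cats in the same fit. The difference between the orders was called for 1 of the 49 and their average for 4. The 49 were chosen by their change in the LD-first cats, which enters the 0.90, the difference and the average. These values are therefore not independent of the choice. For ENSFCAG00000031558 the change was 0.84 (standard error 0.37) in the SD-first cats, and it was higher at period 2, there on LD, in 3 of 4 cats. The difference between the orders was 0.22 (standard error 0.47, edgeR adjusted p = 0.896). For ENSFCAG00000007897 it was 1.35 (standard error 0.56, adjusted p = 0.791), for ENSFCAG00000005217 -0.31 (standard error 0.61, adjusted p = 0.890) and for ENSFCAG00000001234 -0.43 (standard error 0.33, adjusted p = 0.791). For none of these genes was a difference between the orders shown, nor that the orders were alike.

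The SD-first cats fell on both sides of the axis that parted cat 5 from its group. At the 1663 genes of the 5-cat fit, the change from period 1 to period 2 went the way of the 5 LD-first cats for 16.2% of genes in cat 1 and 15.2% in cat 6, and for 78.1% in cat 7 and 90.1% in cat 9. Over all genes, set against the mean change of the same 5 cats, the shares were 41.3%, 41.7%, 55.0% and 65.4% in cats 1, 6, 7 and 9. The changes of cats 1 and 6 had correlations across genes of 0.477 and 0.736 with those of cat 5 and averaged -0.467 and -0.460 with those of the other 5. Cats 7 and 9 had -0.187 and -0.508 with cat 5 and averaged 0.248 and 0.503 with the others. The axis was therefore not followed in one direction within either order of the day lengths.

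**Figure D5:**
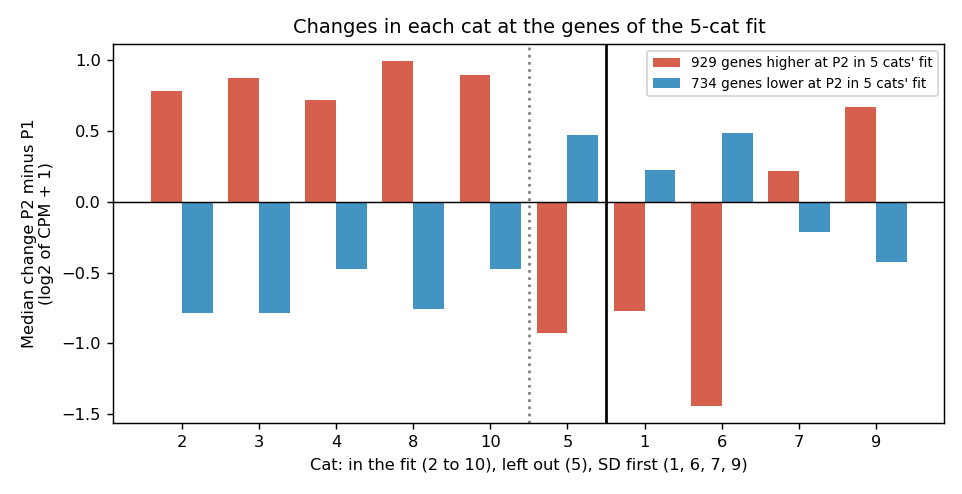
Median change from period 1 to period 2 (log2 of CPM + 1) in each cat at the 929 genes higher (red) and the 734 genes lower (blue) in the fit of cats 2, 3, 4, 8 and 10, whose bars are signed by that choice. Cat 5, left out of the fit, and the SD-first cats 1 and 6 have bars of opposite sign, and the SD-first cats 7 and 9 have bars of the same sign.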

How the data were processed

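RNA of the 20 biopsies was sequenced from one end on an Illumina HiSeq2000. Seqtk was used by the authors for trimming, TopHat with Bowtie for alignment to Ensembl's Felis_catus_6.2, and htseq-count for counting. They deposited raw counts of 21890 genes, neither normalized nor filtered, with 5 summary entries that took 24.5% to 31.9% of the reads of the 12 libraries and were left out here. Strand use in counting is not given in the sources used here. The individual and the period in each column name gave its sample.

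TMM factors, CPM (counts of a gene per fixed number of reads on genes, scaled by TMM) and quasi-likelihood F tests came from edgeR 4.0.16 (R 4.3.3). Tested genes reached 1 CPM, before TMM scaling, in 1 or more of the 12 libraries, and the cat was a block. Calls were made at the paper's raw p of 0.005, with the Benjamini-Hochberg adjusted p beside it. The standard error was the absolute log2 fold change divided by the square root of F. All 20 libraries entered 1 fit for the comparison of orders, with the change estimated within each order. Principal components used log2(CPM + 1) of genes with at least 1 CPM in 6 of the 12 libraries. Alternatives used DESeq2 1.42.0, limma 3.58.1, other scalings, filters and covariates, and left out each cat in turn. Scripts were tested on simulated data. Plots were drawn with matplotlib 3.10.9.

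The pairing comes from the labels, which name the individual. As a check, deviations from the period means correlated within cats at 0.117 to 0.262 in 5 cats and at -0.591 in cat 5, with a mean of 0.0514. Between different cats they ran from -0.433 to 0.426, with a mean of -0.0121. The mean distance, on log2(CPM + 1) without TMM, was 78.5 within and 76.7 between cats. By correlation, 1 of 6 cats was closest to its own sample, so the pairing rests on the labels and not on this check. The labels give 6 cats for this order and 4 for the other, where the paper gives groups of equal size. No 2 libraries were alike within sampling noise.

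The named genes are, in each direction, the 2 with the lowest p at a mean of at least 1 CPM. Each was called and moved one way in all 6 cats. The members and the tests were chosen with earlier results of these data known. Reads carry no molecular identifiers, so detection floors cover counting error only.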

Additional observations from a re-analysis of the deposited data

Results flagged for a closer look

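Of 27 groups of values searched for an outlying cat, 3 held one, where chance flags about 1 in 20 groups. The change in gene total from period 1 to period 2 was -2004470 reads in cat 5, far from the other 5 cats, which lay between -77733 and 1038771. The level of ENSFCAG00000007897 on SD at period 2 was 3.48 CPM in cat 3, against 1.02 to 1.68 CPM in the others, and its within-cat change on the log2(CPM + 1) scale was 1.66 in cat 3. This level and this change share 1 sample and are not separate flags. The 3 therefore cannot be weighed against the rate of chance flags. The library of cat 3 at period 2 is also the one that held 82 of the 104 genes with over 50% of their summed level in a single library.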

How the results depend on the processing

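The count at the raw threshold (49 genes) was 79 without the replicate block, 29 with all 20 libraries in 1 fit, 245 by the likelihood ratio test, 324 by DESeq2, 77 without a filter and 389 with the unassigned share as covariate, and ran from 11 to 1488 when each cat was left out. Fits without cat 5 under other settings, added after the data were seen, gave 1373 to 2286. Genes at an adjusted p under 0.05 (0) numbered 3 by the likelihood ratio test, 4 by DESeq2 and 0 to 1663 with each cat left out, and, without cat 5, 1613 under library size only, 1510 with DESeq2's size factors, 1852 by limma voom, 2359 by DESeq2, 2771 by the likelihood ratio test and 1345 without the block. At the raw threshold these fits gave 1502, 1443, 1602, 2015, 2286 and 1373. The difference between the orders (21) was 46 by the likelihood ratio test, 193 by DESeq2, 13 under library size only, where the median of all genes moved to -0.39, and 8 to 185 with each cat left out. The change averaged over the orders (40) was 128, 217 and 17 under the same settings, the last with a median of 0.14, and 13 to 124 with each cat left out. Genes that moved one way in all 6 cats (428) numbered 274 under library size only and 4174 in the 5 cats without cat 5. The cause of these changes was not tested.

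The change in the share of reads on no gene (-0.101 percentage points) ran from -0.896 to 0.416 with each cat left out, with the opposite sign without cats 3 (0.133), 4 (0.407), 8 (0.416) and 10 (0.214). The TMM factor (-0.0213) ran from -0.0743 to 0.0104, with the opposite sign without cats 4 (0.0103), 8 (0.00269) and 10 (0.0104). The other library measures kept their sign, at 97884 to 706532 reads for gene total (254698), 2.30 to 7.12 points for the 50 highest genes (3.74) and -49.5 to -24.2 for component 1 (-31.4), with the end farthest from 0 in each reached without cat 5. The relation with gene total turned to 0.823 without cats 2 and 5. Of 68 alternative values of the 4 named genes, 61 kept direction and threshold, 7 missed the threshold and none changed sign. Each fit without 1 cat of this order rested on 5 pairs, and tests by gene list could not be run without symbols. The fit without the library of the different letter is the one without cat 4.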
